A study of Mus musculus with 9 samples.

Results

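The genes of the proteasome, with its regulators and assembly factors, were followed through birth in the mouse heart. The members were chosen by name alone, as the genes whose deposited symbol began with Psma to Psmg followed by a number (49 of 48820 genes in the table). RNA was sequenced from whole hearts of untreated wild-type C57BL/6J mice, labelled male, at embryonic day 18.5 (E18.5d), postnatal day 1 (P1d) and postnatal day 7 (P7d), with 3 biological replicates at each stage. Levels are given as FPKM, which is a fragment count scaled to transcript length and to the mapped total. Of the 49 members, 46 averaged 1 FPKM or more across 9 hearts and were tested, and the other 3 were *Psmb9*, *Psma8* and *Psmb11*.

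The proteasome is the protease that degrades proteins tagged with ubiquitin. Its barrel-shaped core is built of outer alpha rings and inner beta rings, the latter holding the catalytic subunits. A regulatory particle, made of an ATPase ring and non-ATPase subunits, caps the core, recognises ubiquitin and unfolds the substrate. In cells exposed to interferon-gamma, and constantly in leukocytes, the catalytic subunits *Psmb5*, *Psmb6* and *Psmb7* can be exchanged for *Psmb8*, *Psmb9* and *Psmb10*, which form the immunoproteasome, and the product peptides are loaded on MHC class I. The transcription factor Nfe2l1 raises the transcription of many subunit genes together when proteasome activity is short, through antioxidant response elements. In the heart, proteasomes take part in the turnover of sarcomere proteins and in protein quality control.

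The hearts differed in points that bear on every result. *Xist*, transcribed from the inactive X, ranged from 58.0 to 97.0 FPKM in E18.5d replicates 1 and 3 and P7d replicates 2 and 3, and 4 Y-linked genes were listed at 0 in these hearts, against their label. The other 5 hearts held at most 0.11 FPKM of *Xist*. The steps between low values gave a depth of 26.0 to 45.0 (in units of 1e6 fragments) per heart. The cardiomyocyte markers were high in every heart, with a sum of 17880 to 23610 FPKM over 7 genes. Endothelial markers summed to 297.9 to 334.9 FPKM at E18.5d and to 417.0 to 431.8 FPKM at P7d (5 genes), and fibroblast markers to 533.7 to 542.8 and to 718.1 to 733.7 FPKM (5 genes). Erythroid markers summed to 5806 to 15460 FPKM at E18.5d, to 8916 to 17110 FPKM at P1d and to 5716 to 7403 FPKM at P7d (5 genes). The part of these cells in the changes of the proteasome genes was not tested. A bulk sample cannot tell fewer cells of a type from less RNA per cell. The median gene fell from stage to stage on the deposited scale, by 0.06 (log2) from E18.5d to P1d, by 0.17 from E18.5d to P7d and by 0.09 from P1d to P7d, so counts are also given after rescaling the columns by median of ratios, which leaves a shift of at most 0.02.

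The structural subunits of the proteasome were abundant in every heart and the assembly chaperones among the members less so. In E18.5d hearts, the mean level per gene ran from 61.7 to 127.6 FPKM in the alpha ring (7 genes) and from 78.8 to 214.3 FPKM in the constitutive beta ring (7 genes). It ran from 48.1 to 188.2 FPKM in the ATPase ring (6 genes) and from 36.2 to 108.3 FPKM among the non-ATPase subunits of the regulatory particle (11 genes). These chaperones lay lower, with 8.94 to 10.5 FPKM for the 3 chaperones of the regulatory particle base and 7.82 to 21.8 FPKM for the 4 chaperones of the core. FPKM is a level per transcript length and can be set side by side between genes, so the structural subunits of the constitutive particle were all more abundant at this stage than the 7 chaperones among the members. *Pomp*, an assembly factor of another name, is given further on and was not that low. This held at P7d too, where the means ran from 47.3 to 102.0 FPKM in the alpha ring, from 62.7 to 182.9 FPKM in the beta ring, from 41.8 to 162.1 FPKM in the ATPase ring and from 27.7 to 101.7 FPKM among the non-ATPase subunits. The chaperones were then at 6.83 to 8.12 FPKM for the base and 6.45 to 14.5 FPKM for the core. *Psmb6*, which carries a catalytic site of the beta ring, had the highest mean of all members (214.3 ± 8.15 FPKM, SD, n = 3 at E18.5d).

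The member with the highest mean over the 9 hearts is given for several roles, and it does not describe the whole role. The gene means at E18.5d had a median of 75.4 FPKM in the ATPase ring, 50.6 FPKM among the non-ATPase subunits and 34.9 FPKM among the activators. In the alpha ring the highest member was *Psma6*, with 126.5, 127.5 and 128.7 FPKM in the E18.5d hearts. In the ATPase ring it was *Psmc3*, with 194.9, 192.7 and 177.2 FPKM, and among the non-ATPase subunits *Psmd8*, a lid subunit, with 116.9, 109.3 and 98.6 FPKM. Among the activators, which open the core without ATP, *Psme1* was the highest with 122.8, 116.3 and 111.0 FPKM, and *Psme2b*, a copy of *Psme2*, was at 1.41 to 2.70 FPKM in all 9 hearts, where reads shared with *Psme2* leave its level uncertain. The tissue-restricted core subunits were at or near the limit of detection. *Psma8*, an alpha subunit of the testis, was at 0.20 to 0.71 FPKM and *Psmb11*, the beta subunit of the thymus cortex, at most at 0.01 FPKM, the latter on an estimated 0 to 2 fragments per heart.

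On the deposited scale, most proteasome genes fell to P7d. Of the 46 members tested, 31 fell and 1 rose from E18.5d to P7d (limma, adjusted p under 0.05), where 36.9% of all 13618 genes tested were lower and 12.5% higher. The median log2 change of the members was -0.25, beside -0.17 over all genes. The hearts of the 2 stages did not overlap in 39 members, with all P7d hearts below in 36 of them and above in 3. Among all genes the P7d hearts were all below in 45.6% and all above in 16.9%. With median of ratios, 12 members were lower and 5 higher, against 20.9% and 21.3% of all genes, and the median was -0.07, beside -0.02 over all genes. The number of members called lower thus depended on the scale.

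Between P1d and P7d, 32 members were lower and 1 was higher, where 28.6% of all genes were lower and 15.5% higher. The median of the members was -0.28, beside -0.09 over all genes. With median of ratios, 20 members were lower and 1 was higher, against 19.8% and 21.9% of all genes, with a median of -0.17. Between E18.5d and P1d, 8 members were higher and 3 lower, against 18.4% and 27.6% of all genes, with a median of 0.04, beside -0.06 over all genes. With median of ratios these counts were 12 and 3, against 23.2% and 22.9% of all genes. After each column was scaled to the same sum, called the equal-sum scale here, the median change of the members at P1d turned to -0.13. On that scale 2 members were higher and 9 lower at P1d. The median of all genes was then -0.21, and 30 of the 46 members lay above it, beside 29 on the deposited scale. From P1d to P7d, 1 member was higher and 10 were lower on the equal-sum scale, with a median of -0.15, beside 0.02 over all genes. The shares of all genes called on that scale are not given here. P1d replicate 2 stood apart in the sum of its column, with 1794160 FPKM beside 1347981 to 1520448 FPKM in the other hearts. How the fall was divided between the intervals before and after P1d thus depended on the scale. The comparisons share hearts and are not independent of each other.

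As a profile over the 3 stages, 25 of the 46 members (54.3%) had their highest mean at P1d, where this held for 34.6% of all genes, and 39 (84.8%) had their lowest mean at P7d, where this held for 47.5%. After median of ratios these shares were 63.0% against 34.2% for the highest mean at P1d and 67.4% against 31.7% for the lowest mean at P7d. The highest mean fell on P7d for 3 of the 46, namely *Psmb8*, *Psmb10* and *Psme2b*.

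**Figure D1:**
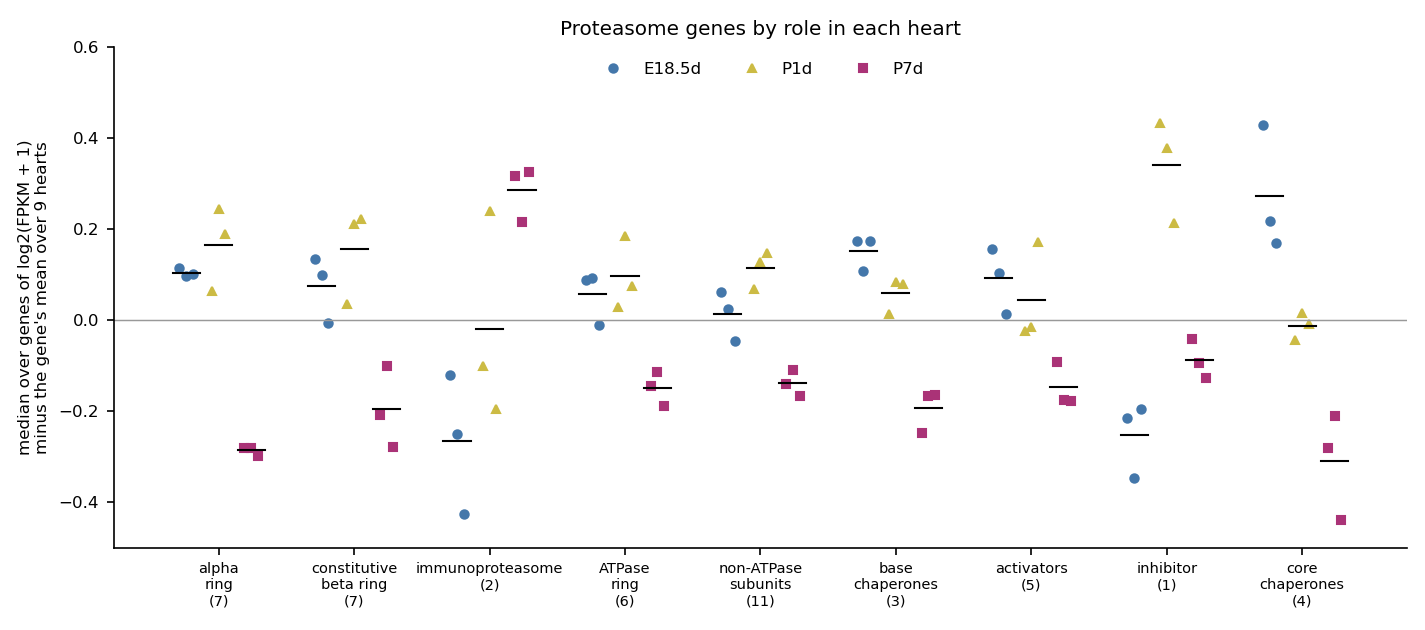
Median over the genes of a role of log2(FPKM + 1), taken relative to each gene's mean over the 9 hearts, with one point per heart, a bar for the mean of 3 hearts and the number of genes tested below each role. The P7d hearts lie lowest in every role but the immunoproteasome, where they lie between 0.22 and 0.32 with one P1d heart among them, and the inhibitor, where the E18.5d hearts lie lowest.

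The alpha ring forms the gate of the core. At P7d, all 7 of its genes were lower than at either earlier stage, with medians of -0.42 and -0.43 (log2). *Psma6* was at 137.0, 145.5 and 148.9 FPKM in the P1d hearts and at 96.2, 97.0 and 92.3 FPKM in the P7d hearts. Its E18.5d values, given above, lay between these, and no hearts of different stages overlapped. The change of *Psma6* was -0.59 from P1d to P7d (standard error 0.05; limma, adjusted p = 4.2e-05), the largest decrease in that comparison, and 0.17 from E18.5d to P1d (adjusted p = 0.022). The latter turned to -0.0025 on the equal-sum scale, and its call was lost when replicate 1 or 2 of E18.5d or replicate 3 of P1d was left out.

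*Psma2*, another alpha subunit, was at 99.8, 98.5 and 101.4 FPKM at E18.5d, at 100.4, 112.5 and 112.6 FPKM at P1d and at 75.6, 73.0 and 67.9 FPKM at P7d. The E18.5d and P1d hearts overlapped and the P7d hearts lay below both. It fell by 0.58 from P1d to P7d (log2, adjusted p = 0.000138). *Psma3* was at 64.8, 77.2 and 73.5 FPKM at E18.5d, at 62.9, 61.6 and 68.1 FPKM at P1d and at 47.9, 48.6 and 45.6 FPKM at P7d. It was the alpha gene that fell the most from E18.5d to P7d, by 0.59 (standard error 0.07, adjusted p = 0.000194), or by 34.1% of its mean FPKM. With median of ratios 4 of the 7 alpha genes fell from E18.5d to P7d and 6 of 7 from P1d to P7d, beside 20.9% and 19.8% of all genes. The log2 changes of all 7 were negative in both comparisons on either scale.

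Promoter sequences were available for 41 of the 49 members from RefSeq (GRCm38.p6, 250 bases before to 50 after each start). They were searched on both strands for TGACNNNGC, the core of the antioxidant response element through which Nfe2l1 acts, for TTCNNNGAA, the gamma-activated site of interferon-gamma signalling, for GAAANNGAA, a core of the interferon-stimulated response element, and for CCAAT. The first was found in 6 members (14.6%, beside 12.4% of all promoters), the gamma-activated site in 3 (7.32% beside 8.30%), GAAANNGAA in 7 (17.1% beside 8.56%) and CCAAT in 14 (34.1% beside 37.4%). The members were counted as genes with a match in any of their 44 promoter entries, and all promoters as 32851 single entries. The paired shares are thus in unlike units. No matches of different motifs overlapped in the members. The stretches of 30 bases printed here are from the catalytic subunits that held the first or the second motif, constitutive *Psmb5* and *Psmb6* and immunoproteasome *Psmb8*. The matched letters are in capitals, all 3 stretches read 5′ to 3′ on the strand of the gene, and distances are from the RefSeq start.
Psmb5, chr14:54618023-54618052, minus strand, match beginning 47 bases before the start: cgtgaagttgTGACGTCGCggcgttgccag
Psmb6, chr11:70525338-70525367, plus strand, match beginning 9 bases before the start: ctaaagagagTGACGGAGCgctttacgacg
Psmb8, chr17:34198088-34198117, plus strand, match beginning 97 bases before the start: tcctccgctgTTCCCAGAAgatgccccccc
The first pair carried the antioxidant response element core and *Psmb8* the gamma-activated site, in a stretch that lies inside the *Psmb8* gene of the GENCODE annotation. The other members with the former were *Psmc6*, *Psmd12*, *Psmd9* and *Psme4*, and those with the latter *Psmd2* and *Psmg1*. These are matches of letters, and binding was not measured.

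In the constitutive beta ring, 6 of 7 genes fell from E18.5d to P7d (median -0.24), and 6 of 7 from P1d to P7d (median -0.37). These were 1 and 4 genes with median of ratios. On the deposited scale 36.9% and 28.6% of all genes were lower in these comparisons and with median of ratios 20.9% and 19.8%, so that 1 of 7 is not above the share of all genes. The catalytic subunits were *Psmb5*, *Psmb6* and *Psmb7*, which cut after hydrophobic, acidic and basic residues. *Psmb5* was at 82.0, 80.3 and 74.0 FPKM at E18.5d, at 61.0, 78.0 and 71.1 FPKM at P1d and at 61.9, 68.6 and 57.5 FPKM at P7d. The E18.5d hearts lay above the P7d hearts, while the P1d hearts overlapped with both. *Psmb6* was at 217.7, 220.2 and 205.0 FPKM at E18.5d, at 197.9, 227.4 and 232.8 FPKM at P1d and at 183.1, 184.4 and 181.2 FPKM at P7d. *Psmb7* was at 113.1, 107.4 and 104.3 FPKM at E18.5d, at 100.5, 115.6 and 115.3 FPKM at P1d and at 85.5, 82.8 and 73.7 FPKM at P7d. All 3 catalytic genes had their lowest mean at P7d, and for *Psmb6* and *Psmb7* every P7d heart lay below every heart of the other stages.

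From E18.5d to P7d, *Psmb7* fell by 0.42 (log2, standard error 0.08; limma, adjusted p = 0.00173) and also passed the threshold with median of ratios (-0.24, adjusted p = 0.0336). *Psmb5* fell by 0.33 (adjusted p = 0.0195) and *Psmb6* by 0.23 (adjusted p = 0.0201) on the deposited scale, the genes with the antioxidant response element core printed above. Neither passed with median of ratios (adjusted p of 0.26 and 0.618), and both calls were lost when 1 of 4 hearts was left out (replicates 1 and 2 of E18.5d, 1 and 3 of P7d). *Psmb4*, a non-catalytic beta subunit, was the beta gene called at P1d, where it was 0.22 higher than at E18.5d (adjusted p = 0.0392). It did not pass on the equal-sum scale (adjusted p = 0.692) or with a covariate for *Xist* (adjusted p = 0.14).

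**Figure D2:**
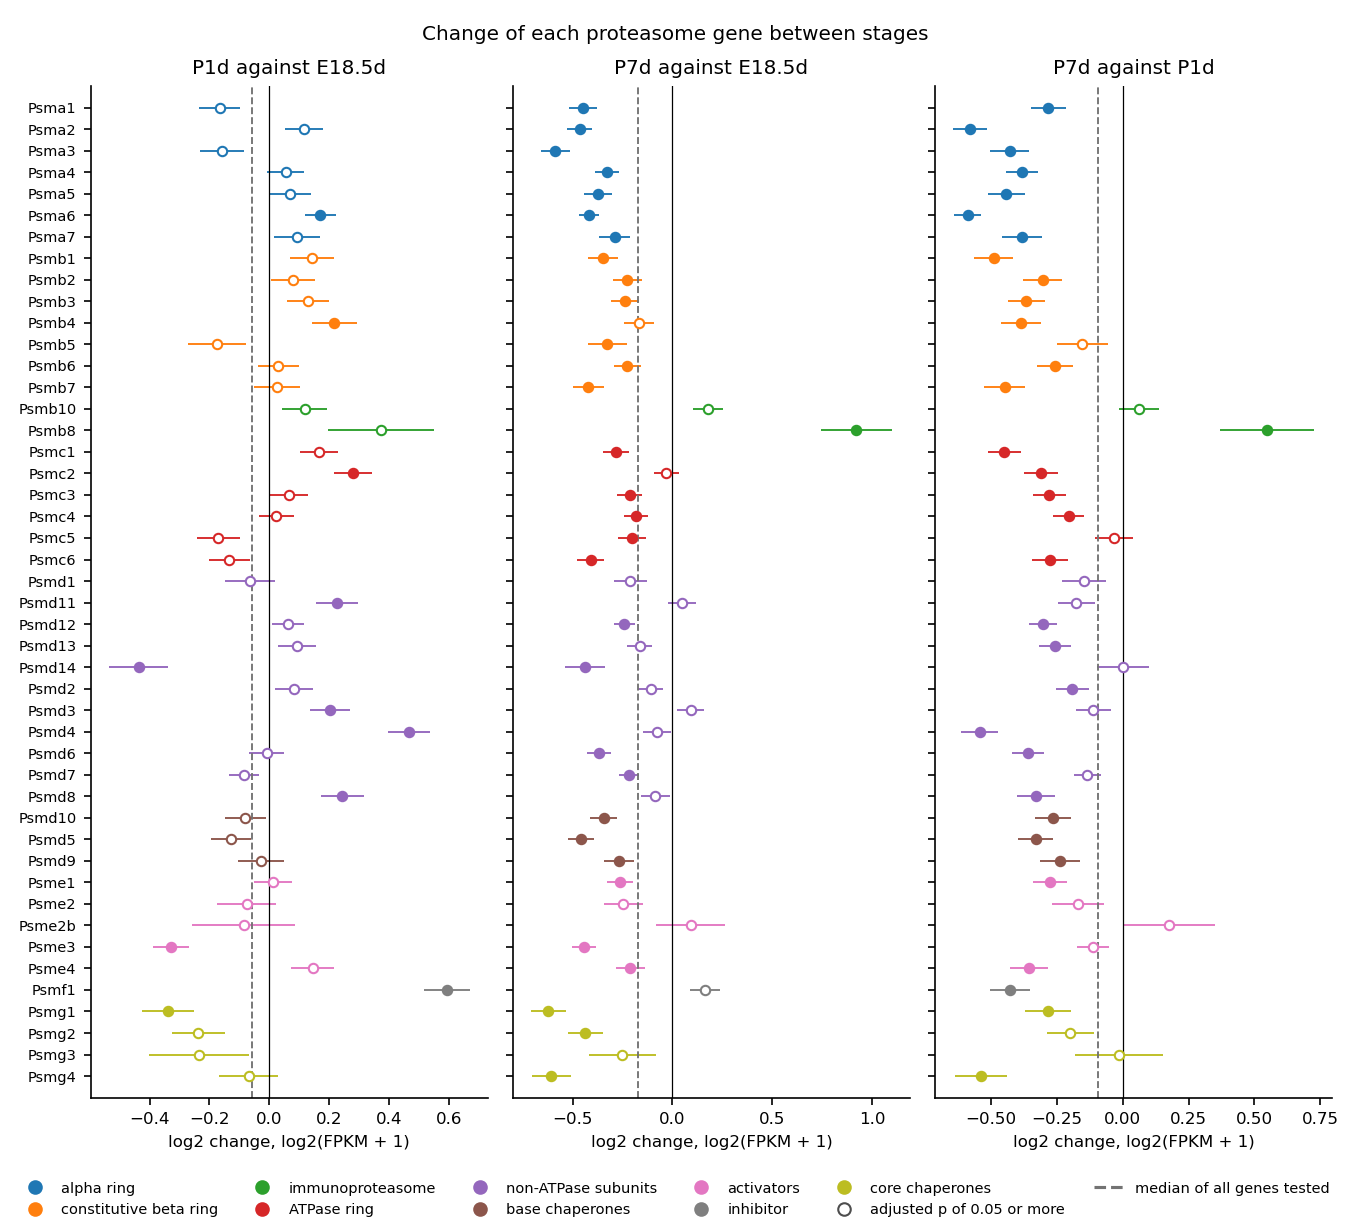
Log2 change of each of the 46 proteasome genes tested on the log2(FPKM + 1) scale, with bars of 1 standard error (limma), coloured by role and filled where the adjusted p was under 0.05. The dashed line is the median of all 13618 genes, at -0.06, -0.17 and -0.09 from left to right, and most genes lie to its left in both comparisons with P7d, while *Psmb8* lies to its right.

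Of the 3 immunoproteasome genes, 1 rose to P7d on the deposited scale, namely *Psmb8*. *Psmb8* (chr17:34197721-34201454, plus strand, GRCm38) replaces *Psmb5*, and its RefSeq promoter holds the gamma-activated site match printed above. It was at 2.93, 2.32 and 1.82 FPKM at E18.5d, at 2.78, 4.68 and 2.73 FPKM at P1d and at 5.69, 4.74 and 5.52 FPKM at P7d. Every P7d heart lay above every heart of the other stages, while the E18.5d and P1d hearts overlapped. *Psmb8* was the single member higher at P7d than at E18.5d on the deposited scale (log2 change 0.92, standard error 0.18; limma, adjusted p = 0.00228), from a mean of 2.36 ± 0.556 to 5.32 ± 0.507 FPKM (SD, n = 3), an increase of 125.6%. The log2(FPKM + 1) scale understates changes at such levels. It was also the single member higher at P7d than at P1d (0.55, adjusted p = 0.0316), and this call was lost without P1d replicate 1 or 3, without P7d replicate 1 or 3, without a filter on low values and with a covariate for *Xist*. The level of *Psmb8* rested on an estimated 174 to 762 fragments per heart.

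*Psmb10* (chr8:105935735-105938444, minus strand) replaces *Psmb7* and was the most abundant of the 3 immunoproteasome genes. It was at 23.7, 23.4 and 21.5 FPKM at E18.5d, at 25.3, 27.1 and 22.4 FPKM at P1d and at 25.5, 25.9 and 26.6 FPKM at P7d. The P7d hearts lay above the E18.5d hearts and within the range of the P1d hearts. Its log2 change from E18.5d to P7d was 0.18 (adjusted p = 0.0726) on the deposited scale and 0.35 with median of ratios (adjusted p = 0.00346). *Psmb9* (chr17:34181987-34187764, minus strand), which replaces *Psmb6* and lies beside *Psmb8* in the MHC region, stayed under the filter. It was at 0.83, 0.72 and 0.44 FPKM at E18.5d, at 0.61, 1.1 and 0.81 FPKM at P1d and at 0.64, 1.43 and 1.01 FPKM at P7d, on an estimated 46 to 198 fragments, and all 3 stages overlapped.

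Within a heart, the ratio of an immunoproteasome gene to the constitutive gene it replaces does not depend on the scale of the column. *Psmb8* stood at 3.57%, 2.89% and 2.46% of *Psmb5* in the E18.5d hearts, at 4.56%, 6.00% and 3.84% in the P1d hearts and at 9.19%, 6.91% and 9.60% in the P7d hearts. No stages overlapped, and the order was E18.5d, P1d and P7d. The mean log2 ratio went from -5.09 ± 0.27 through -4.41 ± 0.32 to -3.56 ± 0.26 (SD, n = 3; exact permutation test of the F statistic over 1680 assignments, p = 0.00357, the smallest this design can give; 0.0107 after Benjamini-Hochberg adjustment over the 3 ratios). *Psmb10* stood at 20.9%, 21.8% and 20.6% of *Psmb7* at E18.5d, at 25.2%, 23.5% and 19.4% at P1d and at 29.9%, 31.3% and 36.1% at P7d. The P7d hearts lay above all others here too, and E18.5d and P1d overlapped (exact permutation test, p = 0.0143, adjusted 0.0214). The ratio of *Psmb9* to *Psmb6* was 0.381%, 0.327% and 0.215% at E18.5d, 0.308%, 0.484% and 0.348% at P1d and 0.35%, 0.776% and 0.557% at P7d. These overlapped between stages (exact permutation test, p = 0.154, adjusted 0.154).

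For pairs of stages, two-sided exact tests of 3 hearts against 3 cannot go below 0.1. The log2 ratio of *Psmb8* to *Psmb5* at P7d exceeded that of E18.5d by 1.53 and that of P1d by 0.85 (exact p = 0.1 for both). That of *Psmb10* to *Psmb7* exceeded them by 0.61 and 0.52 (exact p = 0.1 for both). In FPKM the immunoproteasome genes remained the minority at P7d, with *Psmb10* at 32.3% of *Psmb7*, *Psmb8* at 8.47% of *Psmb5* and *Psmb9* at 0.533% of *Psmb6* as geometric means.

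**Figure D3:**
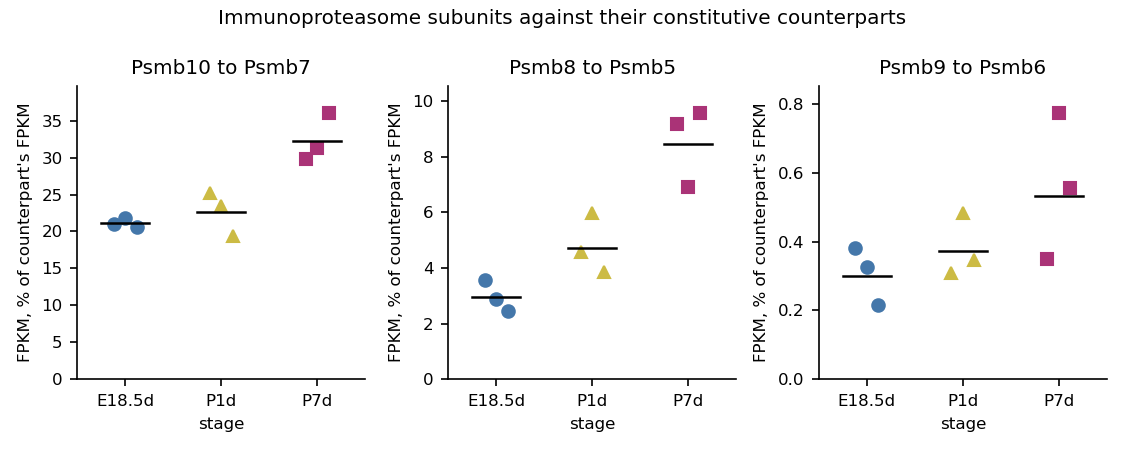
FPKM of each immunoproteasome gene as a percentage of the FPKM of its constitutive counterpart in the same heart, with one point per heart and a bar for the geometric mean of 3 hearts. For *Psmb8* the 3 stages are separate, from 2.46% to 3.57% at E18.5d up to 6.91% to 9.60% at P7d, for *Psmb10* only the P7d hearts are separate, and for *Psmb9* the stages overlap.

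Leukocytes express the immunoproteasome constantly, and from E18.5d to P7d their markers moved in the same direction as *Psmb8*. The sum of 10 leukocyte markers was 21.8 to 27.8 FPKM at E18.5d, 28.6 to 39.1 FPKM at P1d and 33.8 to 36.4 FPKM at P7d, where P1d and P7d overlapped. Of the 7 leukocyte markers that were tested, 3 rose from E18.5d to P7d and none fell, beside 12.5% and 36.9% of all genes. With median of ratios 6 rose and none fell, beside 21.3% and 20.9% of all genes. The 3 on the deposited scale were *Ptprc*, the common leukocyte antigen, from 1.5 to 2.59 FPKM (log2 change 0.52, adjusted p = 0.00865), *Coro1a*, from 3.09 to 5.15 FPKM, and *Csf1r*, the receptor of macrophages, from 7.31 to 10.8 FPKM. *Cd3e* of T cells and *Ly6g* of neutrophils were under 0.5 FPKM in every heart. The direction was not particular to leukocytes. Of the endothelial markers 4 of 5 rose from E18.5d to P7d and of the fibroblast markers 2 of 5, and none fell in either list. The part of any of these cells in the change of *Psmb8* was not tested.

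Genes of antigen processing and of interferon-gamma signalling did not move as a unit. From E18.5d to P7d, 5 of the 12 tested went up and 4 went down (median 0.14), beside 12.5% and 36.9% of all genes. *Tap1* and *Tap2*, the peptide transporter genes that neighbour *Psmb8* and *Psmb9*, were higher (0.54, adjusted p = 0.00771, and 0.84, adjusted p = 0.000487), as were *Tapbp*, *Ifngr1* and *Ifngr2*. *B2m*, the light chain of MHC class I, fell by 0.40, and the interferon signalling genes *Stat2* and *Irf9* fell by 0.42 and 0.72. *Irf1*, an activator of immunoproteasome genes, averaged 5.32 FPKM in E18.5d hearts and 6.74 FPKM in P7d hearts (adjusted p = 0.051). With median of ratios 7 of the 12 genes were higher and 2 lower, beside 21.3% and 20.9% of all genes, and *B2m* and *Stat2* no longer passed.

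In both comparisons with P7d, the regulatory particle had fewer of its genes called than the core. Of its 17 genes, 9 were lower and none higher at P7d than at E18.5d (median -0.20), where 13 of 14 core genes were lower (median -0.34). Over all genes 36.9% were lower, and the median of -0.17 was near that of the particle. These were 2 lower and 2 higher with median of ratios, the latter *Psmd3* (0.27) and *Psmd11* (0.23), with a median of -0.02, where 5 of 14 core genes were lower, with a median of -0.16. Both counts of the particle then lay below the shares of all genes (20.9% lower and 21.3% higher). Between P1d and P7d, 11 of 17 were lower on the deposited scale and 6 with median of ratios, beside 28.6% and 19.8% of all genes. Between E18.5d and P1d the particle had more genes called than the core, on the deposited scale. There 5 of 17 were higher and 1 lower, where 2 of 14 core genes were higher and none lower. Of all genes 18.4% were higher and 27.6% lower in that comparison. The difference between the particles was not tested as a group. Within each heart the median position of the non-ATPase subunits minus that of the alpha ring was -0.15 to -0.05 (log2) at E18.5d, -0.12 to 0.00 at P1d and 0.13 to 0.17 at P7d. Among the roles of the particle and the constitutive core, these had the smallest and the largest median fall to P7d (-0.16 and -0.42). They therefore do not stand for the particle and the core. The positions of the ATPase ring and the constitutive beta ring overlapped at P7d, at -0.19 to -0.11 and -0.28 to -0.10.

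In the ATPase ring, 5 of 6 genes fell from E18.5d to P7d on the deposited scale, beside 36.9% of all genes, and *Psmc2* was the exception. With median of ratios 1 of 6 was lower, which is not above the 20.9% of all genes. The median of the ring was then -0.03, beside -0.02 over all genes. *Psmc2* was at 48.2, 47.1 and 49.1 FPKM at E18.5d, at 55.2, 62.6 and 58.2 FPKM at P1d and at 48.7, 48.6 and 44.1 FPKM at P7d. All P1d hearts lay above those of both other stages, which overlapped with each other. *Psmc2* was 0.28 higher at P1d than at E18.5d (standard error 0.06; limma, adjusted p = 0.00627) and fell by 0.31 from there to P7d (adjusted p = 0.0041). Both calls were lost on the equal-sum scale. *Psmc6* fell by 0.41 from E18.5d to P7d (adjusted p = 0.000945), the largest decrease of the ring, with 55.2 to 56.5 FPKM in the E18.5d hearts and 38.9 to 44.7 FPKM in the P7d hearts. *Psmc1* fell the most of the ring from P1d to P7d, by 0.45 (adjusted p = 0.000505). Both passed with median of ratios. *Psmc3* was at 188.3, 210.0 and 193.3 FPKM at P1d and at 157.4, 167.3 and 161.5 FPKM at P7d. Its P7d hearts lay below those of both other stages, but its decreases did not pass with median of ratios (adjusted p of 0.696 from E18.5d and 0.0518 from P1d).

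Of the 11 non-ATPase subunits, 4 were higher and 1 lower at P1d than at E18.5d, beside 18.4% and 27.6% of all genes. With median of ratios the counts were also 4 and 1, beside 23.2% and 22.9% of all genes. *Psmd4*, a ubiquitin receptor of the particle, was at 83.0, 80.4 and 71.7 FPKM at E18.5d, at 108.5, 115.9 and 101.4 FPKM at P1d and at 73.5, 73.8 and 75.0 FPKM at P7d. The P1d hearts lay above all others, and the E18.5d and P7d hearts overlapped. It was 0.47 higher at P1d than at E18.5d (standard error 0.07; limma, adjusted p = 0.000607) and fell by 0.54 to P7d (adjusted p = 0.000314). *Psmd8*, *Psmd3* and *Psmd11* were higher at P1d as well (0.24, 0.20 and 0.23). All 3 lost their calls on the equal-sum scale (adjusted p of 0.52, 0.82 and 0.626) and with a covariate for *Xist* (0.0905, 0.104 and 0.0606). *Psmd8* also lost its call when replicate 3 of E18.5d or replicate 2 of P1d was left out.

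*Psmd14*, the deubiquitinase that removes the ubiquitin chain before the substrate is degraded, changed in the opposite direction. It was at 38.0, 38.9 and 36.5 FPKM at E18.5d, at 26.5, 24.3 and 32.7 FPKM at P1d and at 27.4, 29.5 and 26.1 FPKM at P7d. The E18.5d hearts lay above all others, while P1d and P7d overlapped. *Psmd14* fell by 0.44 from E18.5d to P1d (standard error 0.10; limma, adjusted p = 0.00592), a decrease of 26.3% in mean FPKM, and its log2 change from P1d to P7d was -0.0007 (adjusted p = 0.996). *Psmd6*, a lid subunit, was at overlapping levels before and after birth and lower thereafter, with 44.3 to 50.7 FPKM at E18.5d, 46.4 to 48.1 FPKM at P1d and 35.7 to 37.2 FPKM at P7d. Its P7d hearts lay below all others, and its falls from E18.5d and P1d, by 0.37 and 0.36, passed with median of ratios, the latter not on the equal-sum scale (adjusted p = 0.104). The fall of *Psmd14* from E18.5d to P7d, by 0.44, did not pass with median of ratios (adjusted p = 0.0691). Among the 17 genes of the particle, *Psmd4* thus had the largest increase and *Psmd14* the largest decrease at P1d.

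**Figure D4:**
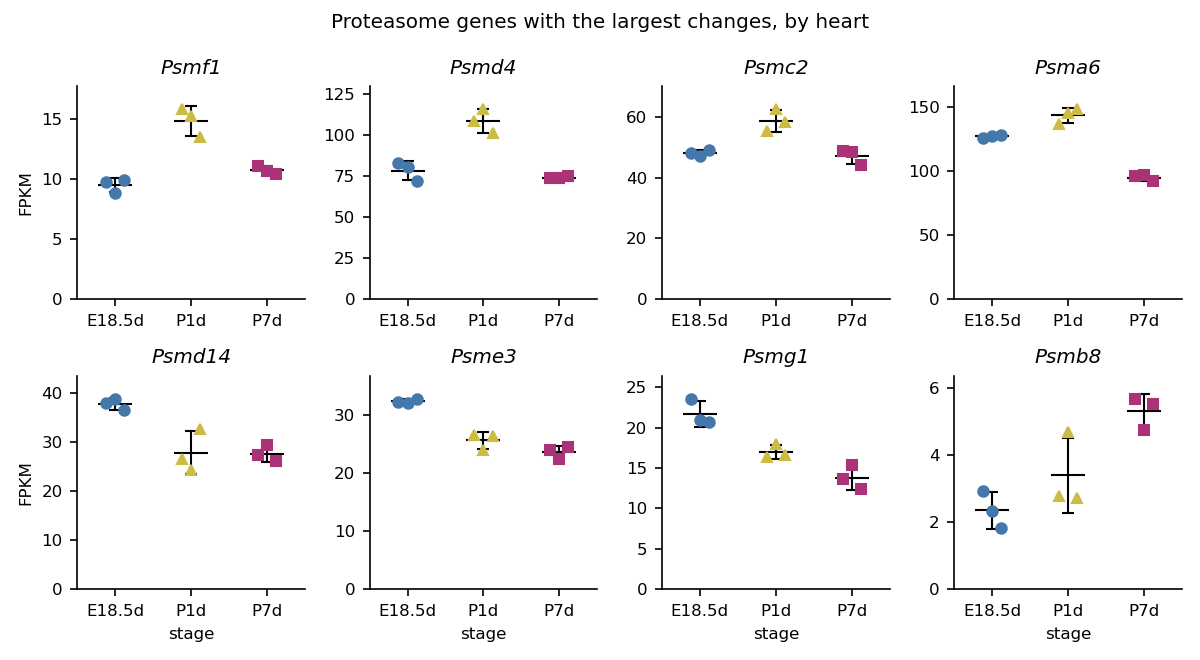
FPKM of 8 proteasome genes in each heart, with a horizontal bar for the mean and error bars of 1 SD over 3 hearts, and axes from 0. *Psmf1*, *Psmd4* and *Psmc2* are highest in the P1d hearts, *Psmd14*, *Psme3* and *Psmg1* are highest in the E18.5d hearts, *Psma6* is lowest and *Psmb8* highest in the P7d hearts.

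Between E18.5d and P1d the inhibitor was higher and 1 of the 5 activators lower, beside 18.4% and 27.6% of all genes. With median of ratios 1 activator was higher and 1 lower, beside 23.2% and 22.9% of all genes. The activators called are thus not above these shares. *Psmf1* encodes a protein that binds the core and inhibits it in vitro, and it rose the most of all members from E18.5d to P1d. It was at 9.75, 8.82 and 9.90 FPKM at E18.5d, at 15.9, 15.2 and 13.5 FPKM at P1d and at 11.1, 10.7 and 10.4 FPKM at P7d. The 3 stages did not overlap. *Psmf1* was 0.59 higher at P1d (standard error 0.08; limma, adjusted p = 0.00025), 56.5% of the mean, and was followed by a fall of 0.43 to P7d (adjusted p = 0.0018, but 0.0629 on the equal-sum scale). *Psme3*, the activator of nuclear proteasomes, was at 32.2, 32.0 and 32.8 FPKM at E18.5d, at 26.5, 23.9 and 26.3 FPKM at P1d and at 23.9, 22.3 and 24.4 FPKM at P7d. It fell by 0.33 from E18.5d to P1d (standard error 0.06, adjusted p = 0.00198), with all E18.5d hearts above all others. *Psme1* and *Psme2*, the interferon-inducible activator subunits, did not share the course of *Psmb8*. *Psme1* fell by 0.26 from E18.5d to P7d (adjusted p = 0.00819, but 0.342 with median of ratios), and the change of *Psme2* was -0.25 (adjusted p = 0.0614). *Psme4*, a large activator of the nucleus, was at 35.7 to 41.04 FPKM at P1d and at 28.1 to 32.2 FPKM at P7d, a fall of 0.36 (adjusted p = 0.00357) that passed with median of ratios and not on the equal-sum scale (adjusted p = 0.225).

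Of the 7 assembly chaperones, 6 fell from E18.5d to P7d on the deposited scale, 4 with median of ratios, and 1, *Psmg1*, had already fallen at P1d. Of all genes 36.9% and 20.9% were lower at P7d on these scales, and 27.6% were lower at P1d on the deposited scale. *Psmg1*, which pairs with *Psmg2* in building the alpha ring, was at 23.6, 20.96 and 20.7 FPKM at E18.5d, at 16.4, 17.9 and 16.6 FPKM at P1d and at 13.6, 15.4 and 12.4 FPKM at P7d. The 3 stages did not overlap. It fell by 0.34 from E18.5d to P1d (standard error 0.09; limma, adjusted p = 0.0107, but 0.0666 with a covariate for *Xist*) and by 0.62 from E18.5d to P7d (adjusted p = 0.000378), the largest decrease among all members in that comparison. *Psmg4*, which pairs with *Psmg3*, was at 16.8, 18.7 and 18.7 FPKM at E18.5d, at 15.03, 17.6 and 19.1 FPKM at P1d and at 11.7, 12.5 and 10.4 FPKM at P7d. Its decrease lay between P1d and P7d (-0.54, adjusted p = 0.00202), since its E18.5d and P1d hearts overlapped. With *Psmg2*, 3 of the 4 core chaperones fell from E18.5d to P7d on both scales. The remaining one, *Psmg3*, was at 6.74 to 9.75 FPKM at E18.5d and at 4.76 to 7.94 FPKM at P7d, which overlapped (adjusted p = 0.238). The base chaperones *Psmd5*, *Psmd9* and *Psmd10* were all 3 lower at P7d than at either earlier stage on the deposited scale, and with median of ratios only *Psmd5* was, in both comparisons.

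Factors that work with the proteasome under other names were in part already lower at P1d. Of 16 partner genes, 9 fell and 2 rose from E18.5d to P1d (median -0.22), beside 27.6% and 18.4% of all genes. From E18.5d to P7d 9 fell and none rose, beside 36.9% and 12.5%. With median of ratios 6 fell and 3 rose in both comparisons. All genes then stood at 22.9% lower and 23.2% higher at P1d and at 20.9% and 21.3% at P7d. The 3 of 16 that rose are not above these shares. *Pomp*, the maturation factor of the core, fell by 0.95 to P1d (from 57.8 to 29.3 FPKM, adjusted p = 0.000291) and by 0.75 to P7d. *Sem1*, the smallest lid subunit, fell by 0.50 and 0.69, and *Uchl5*, a deubiquitinase of the particle, by 0.62 at both stages. *Adrm1*, the receptor that recruits *Uchl5*, was 0.35 higher at P1d (adjusted p = 0.00152), as *Psmd4* was. All of these passed with median of ratios as well.

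Among the 8 genes through which Nfe2l1 sets subunit transcription, 2 rose and 2 fell from E18.5d to P7d. Over all genes 12.5% rose and 36.9% fell. With median of ratios 2 of the 8 rose and 1 fell, beside 21.3% and 20.9% of all genes. Whether this short list differed from all genes was not tested. *Nfe2l1* itself averaged 88.2, 90.3 and 126.4 FPKM in E18.5d, P1d and P7d hearts, a rise of 0.52 over E18.5d (log2; limma, adjusted p = 0.00298) and of 0.49 over P1d (adjusted p = 0.00474). *Ngly1*, the glycanase that activates its product, rose by 0.26 from E18.5d to P7d (adjusted p = 0.0133). *Maff*, a small partner of the factor, fell by 1.26 (adjusted p = 0.000493), as did *Nfe2l2*, by 0.21 (adjusted p = 0.0246, but 0.704 with median of ratios). The level of *Nfe2l1* mRNA says nothing of the amount of cleaved, nuclear protein, which was not measured in these files.

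On the substrate side, 5 of 6 ubiquitin genes fell from E18.5d to P7d, or 2 with median of ratios, beside 36.9% and 20.9% of all genes. *Rps27a*, a ubiquitin fused to a ribosomal protein, fell by 0.95 and *Uba6*, an activating enzyme, by 0.61. Of 4 muscle ubiquitin ligases, *Fbxo32*, *Trim63* and *Fbxo40* were higher at P7d (0.51, 0.34 and 0.74) and *Fbxo30* fell by 0.77. All 4 passed with median of ratios, as did *Rps27a* and *Uba6*.

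The 4 hearts that went against their sex label left 1 E18.5d, 3 P1d and 1 P7d heart when they were taken out together. In that fit no member was called in any comparison. The share of all genes called in it is not given, so this says nothing of the members in particular. The lone E18.5d and P7d hearts were assumed to vary like the P1d hearts. The log2 changes had the same sign as with all hearts in 11 of 11, 32 of 32 and 33 of 33 members called, and the medians over the members were 0.03, -0.27 and -0.30. *Psmb8* changed by 1.01 from E18.5d to P7d without these hearts (adjusted p = 0.176) and *Psmf1* by 0.69 from E18.5d to P1d (adjusted p = 0.0578). With a covariate for *Xist* and all 9 hearts, 5 of the 11, 31 of the 32 and 26 of the 33 calls were made again.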

How the data were processed

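The authors deposited FPKM values of 48820 genes, rounded to 2 decimals, with 1 column per heart. STAR and GRCm38 are named in the submitters' processing notes, without a version, and the counting tool and annotation are not given in the sources used here. Gene positions and types were taken from GENCODE M21 (GRCm38) by identifier, which held 48058 of the genes and all 49 members.

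Values were transformed to log2(FPKM + 1). The 13618 genes averaging 1 FPKM or more entered a single linear model of all 3 stages (limma 3.58.1, R 4.3.3, with a mean-variance trend). P-values were adjusted by the Benjamini-Hochberg method over all of these genes, and those under 0.05 were called. Ratios were tested by exact permutation in Python 3.11.15 (scipy 1.17.1, numpy 2.4.6, pandas 2.3.3), and figures drawn with matplotlib 3.10.9. Depth was estimated from the steps of low FPKM values, of which 91.9% to 94.3% were whole fragments within 0.15. The model was checked on simulated data.

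Genes named with values were the catalytic subunits, the immunoproteasome, for each comparison the 3 called members with the largest increase and decrease among those whose hearts did not overlap, the highest member of each role and the members under the filter. Other members, such as *Psmd6*, *Psmc1*, *Psmc6*, *Psme4* and *Psmg3*, are named within the counts of their role and were chosen after their values were seen. The members, roles, lists and tests were chosen with earlier results of these data known. The kit's strand is not given in the labels. In M21, 14 members share exonic bases with another gene, 5 of them at least 10%, among them *Psmb8* with *Gm20496* (14.7%), which was listed at 0 in all 9 hearts. *Psmb7* shares 11.8% with *Nek6* on the opposite strand, which was at 10.5 to 12.1 FPKM at E18.5d and 5.77 to 6.22 FPKM at P7d. *Psmd13* shares 10.1% with *Sirt3* (20.6 to 29.1 FPKM) and *Psmb9* 5.79% with *Tap1* (1.38 to 3.44 FPKM). The part of these overlaps in the values was not tested. Alternatives were other pseudocounts, filters, scalings and fits, a replicate block, a covariate for *Xist* and leaving out hearts. Some genes of the lists are not reported here by name.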

Additional observations from a re-analysis of the deposited data

How the results depend on the processing

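For P1d against E18.5d, the 8 higher members became 15 with quantile normalization, 5 with only the 2 stages in the fit, 3 with a covariate for *Xist* and 2 on the equal-sum scale, where the 3 lower members became 9. The median turned from 0.04 to -0.13 on that scale, beside -0.06 and -0.21 over all genes, and the change of *Psma6* turned to -0.0025. For P7d against E18.5d, the 1 higher member became 5 with median of ratios or quantile normalization, 2 with only the 2 stages and 0 with a mean of at least 5 FPKM, a filter that removes *Psmb8*. The 31 lower members became 16 with quantile normalization and 12 with median of ratios. For P7d against P1d, the 1 higher member became 0 without a filter, with a mean of at least 5 FPKM and with the covariate, and the 32 lower members became 20 with median of ratios and 10 on the equal-sum scale. Without the 4 hearts with *Xist* all 6 counts were 0, and the difference of the log2 ratio to the constitutive counterpart between P7d and E18.5d was 0.10 for *Psmb9* and 0.45 for *Psmb10*, beside 0.83 and 0.61 with all hearts. Leaving out each heart in turn gave 5 to 9 higher and 3 to 4 lower members for P1d against E18.5d, with 5 without any of the E18.5d replicates. It gave 1 to 2 higher and 23 to 33 lower for P7d against E18.5d, with 2 higher without P1d replicate 2 or 3, and 0 to 1 higher and 28 to 33 lower for P7d against P1d. The cause of these differences was not tested. With a replicate block, the counts were 8 and 3, 1 and 31, and 1 and 32, as without it; hearts of the same number correlated at -0.05 to 0.11 in their deviations from the stage means, so the number does not pair them. Of 37 calls of named members, 25 were made on the equal-sum scale, 26 with median of ratios and 27 with quantiles. Precision is limited by 3 hearts per stage and, for *Psmb9* and *Psmb8*, by few fragments.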
